A study of Rattus norvegicus with 35 samples.

Results

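Contused rat spinal cord 3 days after the operation (LS3, 5 animals) was compared with the cord of rats that had no surgery (CT, 5 animals). These 10 arrays were chosen by the treatment and time labels alone, out of 35 in the series. All animals were adult female Wistar rats. LS3 rats had a laminectomy and a contusion of 200 kdyne on the cord at the T8 vertebra. CT rats had neither, so the difference between LS3 and CT holds the laminectomy as well as the contusion. The fragment of cord at T8 was taken whole from each animal, so each array holds the RNA of 1 animal and of every cell type in the fragment. Rats with laminectomy alone killed on the same day (SH3, 5 animals) and contused rats killed 1 and 7 days after the operation (LS1 and LS7, 5 animals each) are used below where they locate a difference. RNA was labelled with Hy3 dye and hybridized to 1-colour Exiqon miRCURY LNA arrays with 1766 microRNA names, of which 349 held a rat name. A microRNA was called detected on an array when over a share of 0.5 of its spots lay more than 2 SD above the average negative control. Of 816 names detected in at least 3 animals of a group, 718 also varied over the series (interquartile range above 0.5) and were tested, 232 of them with a rat name. Levels are on the generalized log2 scale of variance stabilization (VSN), on which a difference of 1 is close to a doubling for bright spots and understates the change of dim ones.

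MicroRNAs are short RNAs that pair through their seed, the bases near the 5′ end, with messenger RNAs and lower their translation or stability. Cells of different lineages hold different sets of them, so the microRNAs of a tissue fragment follow its cellular makeup as well as the regulation inside its cells. Contusion of the cord kills neurons and glia, opens vessels, and is followed by entry of neutrophils and then of monocytes, with proliferation of resident cells. MiR-223 and miR-142 are abundant in myeloid and other blood-derived cells, miR-451 and miR-144 in erythrocytes, and miR-124 in neurons. In bulk tissue, fewer cells of a type and less RNA per cell cannot be told apart.

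The mature sequences of the microRNAs on which the comparison turned are given from RefSeq (build GRCr8), with the seed, bases 2 to 8, in capitals. Of 54 microRNAs looked up, 50 were found there. The first set holds those higher in LS3 that are known from blood-derived and activated cells. MiR-21 lies at chr10:71902653-71902674 on the minus strand, both arms of the miR-142 hairpin within chr10:73055119-73055177 on the plus strand, and miR-223 at chrX:65151450-65151470 on the plus strand.
miR-21: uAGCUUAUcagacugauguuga
miR-223: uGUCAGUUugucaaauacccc
miR-142-3p: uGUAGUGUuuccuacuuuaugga
miR-142-5p: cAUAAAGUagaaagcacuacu
miR-155: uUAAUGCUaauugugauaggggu
miR-147: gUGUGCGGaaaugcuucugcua

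The next set holds microRNAs that were called higher without 1 of the LS3 arrays, replicate 2, and not with it. MiR-17, miR-20a, miR-20b and miR-106b have the seed AAAGUGC in common, and miR-15b and miR-16 share AGCAGCA. MiR-451 and miR-144, transcribed together at chr10:63459446-63459606, have seeds of their own.
miR-17: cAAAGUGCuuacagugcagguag
miR-20a: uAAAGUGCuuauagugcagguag
miR-20b: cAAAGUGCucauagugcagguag
miR-106b: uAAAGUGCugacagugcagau
miR-15b: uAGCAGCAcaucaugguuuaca
miR-16: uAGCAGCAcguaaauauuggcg
miR-451: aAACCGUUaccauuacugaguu
miR-144: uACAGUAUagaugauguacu

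The last set holds microRNAs called lower in LS3 without LS3 replicate 2, of which miR-182 and miR-411 were also called with it. MiR-182 and miR-96 are cut from 1 cluster (chr4:59752249-59755923, minus strand), and their seeds differ in the last base. MiR-127, miR-434, miR-379, miR-411 and miR-376a all come from the imprinted Dlk1-Dio3 region. Of 32 members of that cluster listed here, 31 were placed in RefSeq, all on chromosome 6 between bases 134326468 and 134579828, a span of 253.4 kb.
miR-182: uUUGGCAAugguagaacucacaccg
miR-96: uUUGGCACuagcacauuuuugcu
miR-34a: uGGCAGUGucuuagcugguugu
miR-127: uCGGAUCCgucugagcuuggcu
miR-434: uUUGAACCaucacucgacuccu
miR-379: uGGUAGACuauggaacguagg
miR-411: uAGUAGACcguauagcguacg
miR-376a: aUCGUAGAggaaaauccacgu

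One LS3 array stood apart from the other 4. Over the 718 names, LS3 replicate 2 correlated with the mean of the other LS3 arrays at r = 0.851, against 0.968 to 0.979 for the other LS3 arrays and 0.959 to 0.98 for the CT arrays (a description across names, which are not independent). It gave the lowest of the 5 LS3 values for 511 of the 718 names. Yet it had the most names detected of the LS3 arrays, 949 against 541 to 676. Its median level over all microRNA names was 5.19, against 4.48 to 4.68 on the other LS3 arrays and 4.43 to 4.71 on CT arrays. Its detected signal was 8.21 times the SD of its negative controls, against 10.9 to 18.5 on the other LS3 arrays and 10.8 to 20.8 on CT arrays. It was scanned on a day shared with 2 LS7 arrays and 1 SH1 array, and no CT array was scanned that day. Changes of named microRNAs between LS3 and CT are therefore given with and without this animal. No difference between the groups passed a test in the number of names detected (663 ± 168 in LS3 and 712 ± 258 in CT, SD, n = 5 each), in this signal ratio (12.9 ± 3.96 in LS3 and 14.5 ± 4.21 in CT) or in scanner gain (580 ± 23.5 in LS3 and 580 ± 18.7 in CT) (unadjusted p = 0.71, 0.54 and 1.0 by 2-sided exact permutation tests, whose smallest possible p is 0.0079, and adjusted p = 1.0 for all 3). The cord markers miR-124 and miR-219-5p were detected on each of the 10 arrays. All 16 neuronal and all 4 oligodendrocyte microRNAs listed were detected in the series, that is, in at least 3 animals of some group. Of the neuronal ones tested, 1 was detected on no array of LS3 or on no array of CT.

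After contusion 7 microRNAs rose and 6 fell at day 3 against CT. The microRNAs that rose were miR-21, miR-223, both arms of miR-142, miR-155, miR-147 and the manufacturer's sequence miRPlus-A1027. Those that fell included miR-124 and miR-383 of the neuronal list and miR-182 of the miR-183 cluster. The others were miR-411 and miR-434-5p of the Dlk1-Dio3 cluster, and miR-1224. MiR-1224 was not well above background in any LS3 animal, so the size of its fall is only bounded. The 7 higher calls were 0.975% and the 6 lower calls 0.836% of the 718 names tested by limma with Benjamini-Hochberg adjustment, and 106 names had an unadjusted p under 0.05. The median change over all names tested was −0.20, and it was 0.00 without LS3 replicate 2. The 232 rat names, to which most members of the lists described here belong, had a median of −0.45 (−0.15 without that animal), and 171 of them (73.7%) had a negative change. Over 7 ways of scaling the arrays, the median over all names tested ranged from −0.24 to 0.12. That of the rat names ranged from −0.45 to −0.08. The split of calls also changed. It was 20 higher and 3 lower with arrays scaled on their 75th percentile of detected names. With spike-in scaling it was 7 higher and 31 lower, and in the deposited normalized values 14 higher and 33 lower. All 5 LS3 animals lay above all 5 CT animals for 10 names (1.39%) and below them for 46 names (6.41%), or for 34 of the rat names (14.7%).

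How many microRNAs were called depended on single animals. Without LS3 replicate 2, 45 names were higher (6.27%) and 30 lower (4.18%), and these included all 13 called with it. Leaving out any 1 of the other 9 animals (LS3 replicate 1, 3, 4 or 5, or any CT replicate) left 2 calls, miR-21 and miR-223. The other 11 calls had adjusted p between 0.044 and 0.047 in the full comparison, at the edge of the threshold.

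**Figure D1:**
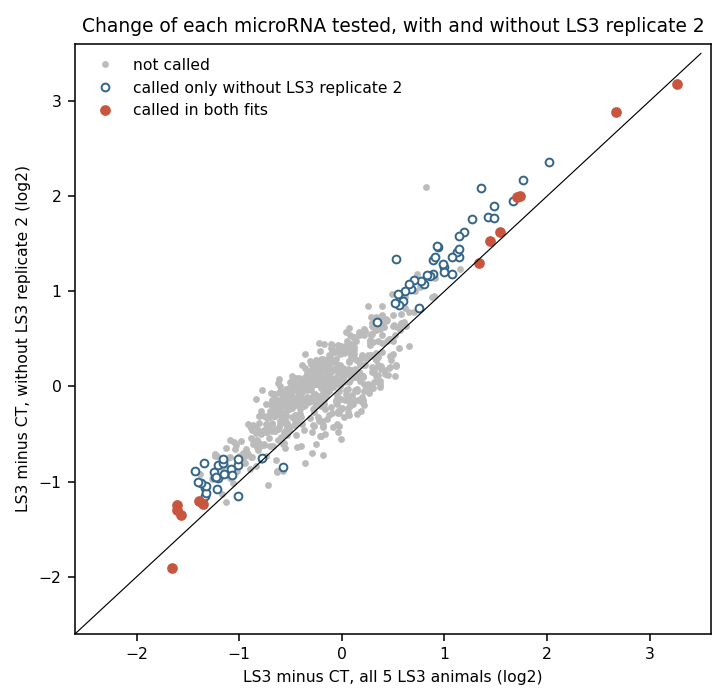
Change of each of the 718 microRNAs tested, LS3 minus CT on the log2 scale, with all 5 LS3 animals (horizontal axis) and without LS3 replicate 2 (vertical axis); the line marks equal change. The 13 microRNAs called in both fits (filled red) include miR-21 and miR-223 at the far upper end, the 62 called only without that animal are open blue, and the median of the cloud is −0.20 on the horizontal and 0.00 on the vertical axis.

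MiR-21 had the largest change of the names tested. It is induced in many injured and inflamed tissues and is expressed by reactive astrocytes and macrophages. Its level was 12.50, 12.93, 12.36, 12.45 and 12.58 in the LS3 animals, against 9.77, 8.97, 9.26, 8.88 and 9.60 in the CT animals. The groups did not overlap, and LS3 replicate 2 was the highest of all. The rise was 3.27 ± 0.31 (SE), about 9.65-fold, with adjusted p = 6.5e-06 by limma, and 3.18 ± 0.24 without LS3 replicate 2. MiR-21*, the opposite arm of the same hairpin, averaged 5.99 ± 0.66 in LS3 and 5.10 ± 0.37 in CT (SD, n = 5 each), a difference of 0.89 ± 0.37 with adjusted p = 0.22. Without LS3 replicate 2, where the arm lay at 4.85 against 6.01 to 6.47 in the other LS3 animals, the difference was 1.18 ± 0.24 (adjusted p = 0.0068, and between 0.0018 and 0.48 over the alternatives).

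MiR-223, which regulates granulocyte maturation, had the next largest rise. Levels of 10.34, 9.55, 10.64, 11.25 and 10.25 in LS3 animals stood against 7.74, 8.35, 7.82, 6.96 and 7.83 in CT animals. The lowest LS3 value, that of replicate 2, was still above the highest CT value. The rise was 2.67 ± 0.37, or 6.35-fold, with adjusted p = 6.3e-04 by limma, and 2.88 ± 0.30 without replicate 2.

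Both arms of the miR-142 hairpin rose by similar amounts. MiR-142 is produced across haematopoietic lineages. The 3p arm was at 11.74, 10.54, 11.38, 12.08 and 12.16 in LS3 animals and at 10.33, 10.12, 9.56, 8.84 and 10.36 in CT animals, a rise of 1.74 ± 0.40 (3.34-fold, adjusted p = 0.044 by limma). No LS3 value overlapped with CT. The 5p arm was at 10.45, 9.54, 10.97, 11.58 and 10.78 in LS3 animals and at 8.62, 9.84, 9.07, 8.14 and 9.11 in CT animals, a rise of 1.71 ± 0.41 (3.27-fold, adjusted p = 0.047). Here LS3 replicate 2 fell below CT replicate 2, the one overlap. Without that LS3 animal the rises were 2.0 ± 0.33 for the 3p arm and 1.99 ± 0.34 for the 5p arm.

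MiR-155, an immune-cell microRNA induced by inflammatory signals in macrophages and lymphocytes, was read by a probe with the mouse name. It was detected in 5 of 5 LS3 animals and was not well above background in any CT animal. Its values were 6.29, 5.61, 6.0, 6.24 and 5.65 in LS3 against 4.82, 4.61, 5.27, 3.27 and 4.13 in CT, without overlap. Set against the lowest detected signal of each CT array (or the probe's own value where that was higher), its mean in LS3 was at least 1.85-fold higher, and at least 1.97-fold without LS3 replicate 2. These bounds were not tested. On the measured values adjusted p was 0.047 by limma. MiR-147, induced in macrophages by Toll-like receptor ligands in mice, was detected in 4 LS3 animals and 1 CT animal. It rose by 1.34 ± 0.31 (adjusted p = 0.044), with LS3 values of 5.15 to 6.02 around a median of 5.85 and CT values of 4.12 to 4.58. With most CT values near background its size is uncertain: it was 0.77 with spike-in scaling (adjusted p = 0.21), and 0.51 with that scaling and without LS3 replicate 2 (adjusted p = 0.26). MiRPlus-A1027, a sequence of the manufacturer without a rat name, rose by 1.44 ± 0.33 (adjusted p = 0.044), with LS3 values of 6.47 to 7.74 and CT values of 5.37 to 5.78. Without LS3 replicate 2 the changes were 1.30 for miR-147 and 1.53 for miRPlus-A1027.

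Of the 8 members of the inflammation and myeloid list, 5 rose and none fell, beside 0.975% and 0.836% of all names tested. The median change was 1.62 beside −0.20 over all names. Without LS3 replicate 2, 6 were called higher, beside 6.27% of all names (median 1.81 beside 0.00). With miR-155 at its bound these medians were 1.30 and 1.48. This list, like every list here, was chosen with earlier results of these data known, so such shares are not a test. MiR-146a and miR-146b, which share a seed and restrain signalling through Toll-like receptors, differed less. MiR-146b averaged 9.26 ± 0.69 in LS3 and 8.66 ± 0.29 in CT (SD, n = 5 each), a difference of 0.60 ± 0.36 (adjusted p = 0.52), and 0.90 ± 0.22 without LS3 replicate 2 (adjusted p = 0.018, and between 0.0032 and 0.98 over the alternatives). MiR-146a averaged 7.81 ± 0.74 in LS3 and 7.50 ± 0.27 in CT, a difference of 0.30 ± 0.37 (adjusted p = 0.76), and of 0.63 ± 0.22 without that animal (adjusted p = 0.091). MiR-150, abundant in mature lymphocytes, was the exception in sign: it averaged 7.64 ± 0.62 in LS3 and 8.70 ± 0.92 in CT, a difference of −1.06 ± 0.44 that did not pass the test (adjusted p = 0.23), and of −1.02 ± 0.46 without LS3 replicate 2.

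**Figure D2:**
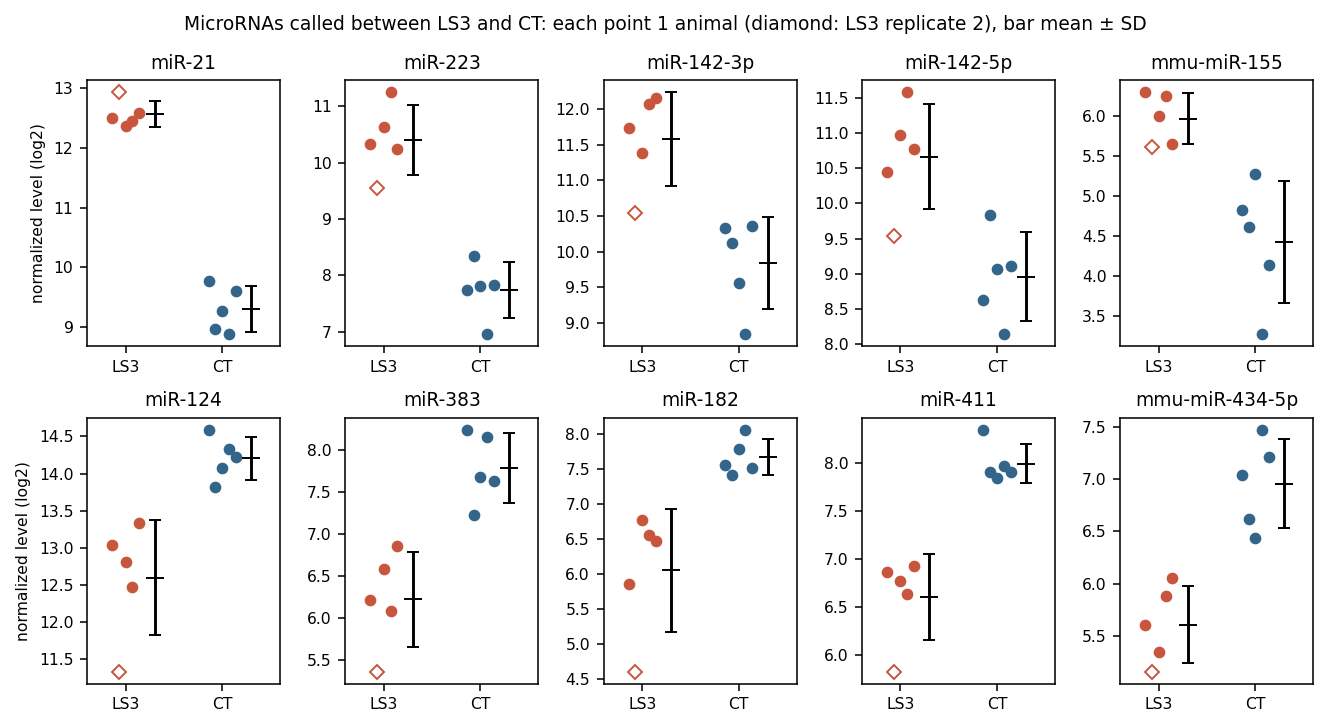
Normalized log2 levels of 10 of the 13 microRNAs called between LS3 (left) and CT (right), 1 point per animal, with the mean ± SD of 5 animals beside the points; the open diamond is LS3 replicate 2. In the lower row every LS3 animal lies below every CT animal, and in the upper row only miR-142-5p overlaps.

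The 3 erythrocyte microRNAs had positive changes, with a median of 1.48 beside −0.20 over all names tested, and none was called with all animals. MiR-144 was at 12.13, 11.57, 13.60, 14.25 and 12.99 in LS3 animals and at 10.73, 11.69, 11.99, 9.04 and 10.99 in CT animals. The groups overlapped at LS3 replicate 2, and CT replicate 4 was far lower than the rest. The difference was 2.02 ± 0.56 (adjusted p = 0.084 by limma), and 2.36 ± 0.55 without LS3 replicate 2 (adjusted p = 0.016). MiR-451 averaged 13.95 ± 0.83 in LS3 and 12.82 ± 0.58 in CT (SD, n = 5 each), and miR-486, by its mouse-named probe, 7.13 ± 0.97 in LS3 and 5.65 ± 0.51 in CT. Their differences of 1.14 ± 0.42 and 1.48 ± 0.44 were not called (adjusted p = 0.17 and 0.10). Without LS3 replicate 2 they were 1.44 and 1.77, and all 3 members of the list were called higher, beside 6.27% of all names tested. Over the alternatives computed, the adjusted p of these members lay between 3.1e-04 and 0.39. The mean level of the 3 members ranged over 10.08 to 12.54 in LS3 animals and over 8.67 to 10.40 in CT animals, and their part in the other differences was not tested.

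The miR-17 cluster and its paralogues, which are induced in dividing cells and target cell-cycle inhibitors, differed in 1 direction. Of 13 members on the array 9 were tested, and all 9 had a positive change, with a median of 0.62 beside −0.20 over all names tested. None was called with all animals. Without LS3 replicate 2, 5 of 9 were called higher (median 1.00), beside 6.27% of all names tested and 21 of 232 rat names. MiR-17 was at 9.95, 8.31, 10.36, 10.73 and 10.67 in LS3 animals and at 8.90, 8.76, 9.19, 7.98 and 9.23 in CT animals. Only LS3 replicate 2 lay within the CT range. The difference of 1.19 ± 0.45 (adjusted p = 0.17 by limma) became 1.62 ± 0.29 without it (adjusted p = 0.0045). MiR-20a, with the same seed, differed by 1.07 ± 0.37 (adjusted p = 0.14), and by 1.36 ± 0.25 without that animal (adjusted p = 0.0046). MiR-15b, which represses cyclins together with miR-16, differed by 0.94 ± 0.48 (adjusted p = 0.38), and by 1.46 ± 0.27 without it (adjusted p = 0.0047). LS3 replicate 2 had a miR-15b level of 8.07, below the CT range of 8.70 to 9.57, whereas the other LS3 animals lay between 10.32 and 11.20. Over the alternatives, adjusted p lay between 3.6e-04 and 0.98 for the called members of the miR-17 list, and between 7.7e-04 and 0.98 for miR-15b and miR-16.

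Vascular and connective tissue microRNAs were not called with all animals. MiR-221 and miR-222, expressed in endothelium and smooth muscle and induced in proliferating cells, differed by 1.00 ± 0.36 and 0.86 ± 0.39 (adjusted p = 0.16 and 0.29 by limma), and by 1.20 ± 0.29 and 1.16 ± 0.28 without LS3 replicate 2 (adjusted p = 0.018 and 0.017). The remaining tested member of the endothelial list, miR-126*, went the other way. It differed by −0.55 ± 0.34, and by −0.31 ± 0.21 without LS3 replicate 2, and was called in neither fit. MiR-199a-3p and miR-214, transcribed together in mesenchymal cells, differed by 0.83 ± 0.38 and 0.55 ± 0.43 (adjusted p = 0.32 and 0.61), and by 1.17 ± 0.22 and 0.97 ± 0.26 without that animal (adjusted p = 0.0051 and 0.027). Over the alternatives, adjusted p lay between 0.0017 and 0.61 for miR-221 and miR-222 and between 0.0014 and 0.98 for miR-199a-3p and miR-214. MiR-143 and miR-145 of contractile smooth muscle had differences of −0.38 and −0.60, and of −0.13 and −0.14 without it, none of them called. Of the 3 tested members of the muscle list, miR-133a differed by −1.09 ± 0.35 (adjusted p = 0.13), while the muscle-specific miR-206 differed by 0.01 ± 0.35. These differences were −0.96 ± 0.30 and 0.11 ± 0.30 without LS3 replicate 2.

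**Figure D3:**
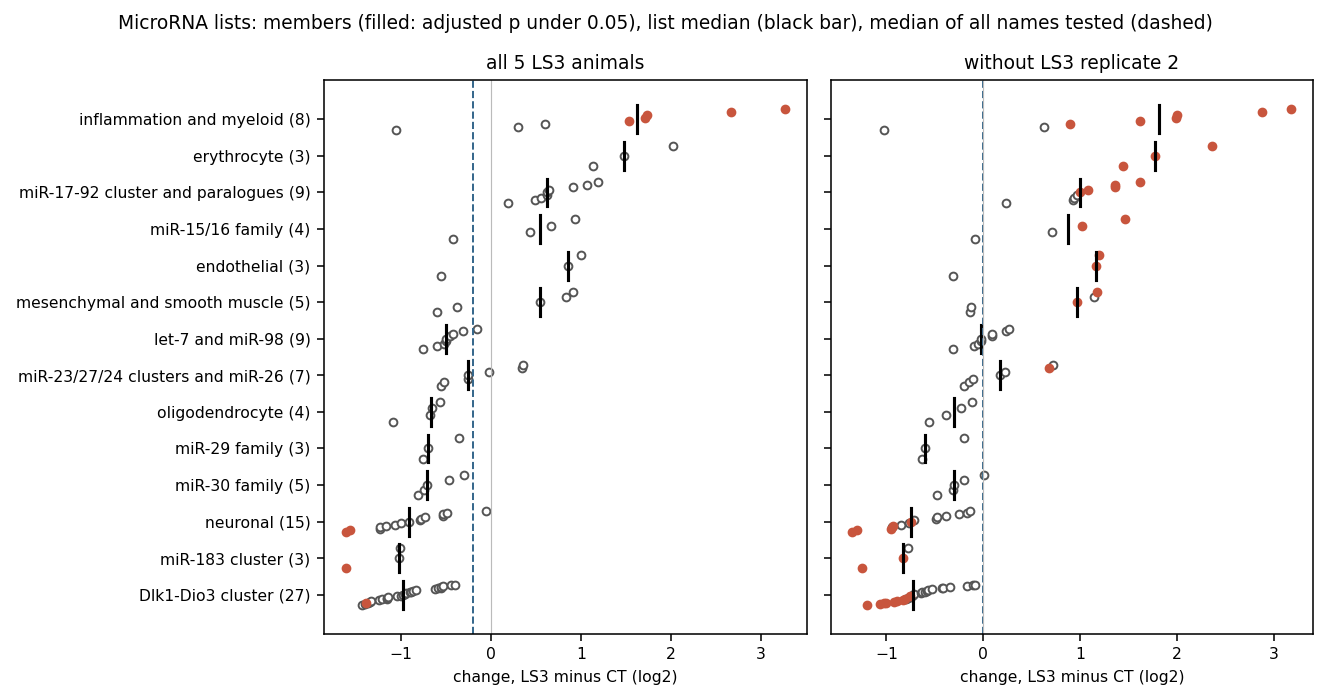
Change of each tested member of 14 microRNA lists, LS3 minus CT on the log2 scale, with all LS3 animals (left) and without LS3 replicate 2 (right); the number after a list is its tested members, filled points passed adjusted p under 0.05, black bars are list medians and the dashed line is the median of all 718 names. The medians of the myeloid, erythrocyte and miR-17 lists lie to the right of the dashed line in both panels, and those of the neuronal, miR-183 and Dlk1-Dio3 lists to its left.

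On the neuronal list, miR-124 and miR-383 fell. MiR-124, the most characteristic microRNA of neurons, which represses non-neuronal transcripts, was at 13.04, 11.33, 12.81, 12.47 and 13.33 in LS3 animals and at 14.59, 13.82, 14.07, 14.33 and 14.22 in CT animals. Every LS3 animal lay below every CT animal, replicate 2 by the most. MiR-124 fell by 1.61 ± 0.38, a 3.06-fold difference (adjusted p = 0.044 by limma), and by 1.30 ± 0.24 without LS3 replicate 2. MiR-383, by its rat-named probe, was at 6.21, 5.36, 6.58, 6.08 and 6.86 in LS3 animals and at 8.24, 7.22, 7.68, 8.15 and 7.63 in CT animals, and fell by 1.57 ± 0.36 (adjusted p = 0.044), or by 1.35 ± 0.27 without that animal. All 15 tested members of the neuronal list had a negative change, with a median of −0.91 beside −0.20 over all names tested and −0.45 over the rat names, of which 73.7% were negative. Of these 15, 2 were called lower, beside 0.836% of all names and 4 of 232 rat names. In 5 all LS3 animals lay below all CT animals, beside 6.41% of all names and 14.7% of rat names. Without LS3 replicate 2, 5 were called lower, beside 4.18% of all names and 8.62% of rat names. The list median was then −0.75 beside 0.00 over all names and −0.15 over rat names. The list was chosen with earlier results of these data known, so these shares describe it and are not a test. MiR-138 and miR-153, which act at synapses, differed by −1.23 ± 0.38 and −1.07 ± 0.34 (adjusted p = 0.11 and 0.12), and by −0.95 ± 0.27 and −0.93 ± 0.27 without that animal (adjusted p = 0.040 for both, and between 8.5e-04 and 0.55 over the alternatives). MiR-9, of neural progenitors and neurons, and miR-128 differed by −0.91 and −1.17, and by −0.71 and −0.85 without that animal, and were called in neither fit. The smallest difference on the list was that of miR-7b, −0.06 ± 0.32, and −0.14 ± 0.25 without that animal.

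None of the 4 oligodendrocyte microRNAs was called. MiR-219-5p and miR-338, which promote myelinating differentiation, were at 12.04 ± 1.00 and 10.03 ± 1.08 in LS3 and at 12.69 ± 0.26 and 10.61 ± 0.51 in CT (SD, n = 5 each). Their differences of −0.65 ± 0.43 and −0.57 ± 0.46 were not called (adjusted p = 0.56 and 0.63 by limma), and without LS3 replicate 2 they were −0.23 ± 0.24 and −0.12 ± 0.31. In that animal miR-219-5p was at 10.34 and miR-338 at 8.23, each the lowest of the 10 values.

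The Dlk1-Dio3 cluster, the longest of the lists, had negative changes throughout. So did the shorter neuronal, oligodendrocyte, let-7, miR-29, miR-30 and miR-183 lists, and those of miR-125 with miR-99/100 and of miR-10 with miR-196. The Dlk1-Dio3 cluster encodes many microRNAs from the maternal chromosome and is strongly expressed in brain and cord. Of 32 members 27 were detected and tested, and all 27 had a negative change, with a median of −0.98 beside −0.20 over all names tested and −0.45 over the rat names, of which 73.7% were negative. Of these members, 5 were not above background in any LS3 animal, and with them at their bound the median was −0.90. For 13 of the 27 every LS3 animal lay below every CT animal, beside 6.41% of all names tested and 14.7% of the rat names. MiR-411 passed the test on the list. Its levels were 6.87, 5.83, 6.77, 6.64 and 6.93 in LS3 animals and 8.35, 7.91, 7.85, 7.97 and 7.91 in CT animals, and it fell by 1.39 ± 0.32 (adjusted p = 0.044 by limma) and by 1.20 ± 0.20 without LS3 replicate 2. MiR-434-5p, by a mouse-named probe that is not a list member, was at 5.60, 5.16, 5.35, 5.88 and 6.05 in LS3 animals and at 7.04, 6.62, 6.44, 7.47 and 7.21 in CT animals, and fell by 1.35 ± 0.33 (adjusted p = 0.047), or by 1.24 ± 0.26 without that animal. The opposite arm, probe miR-434, averaged 9.37 ± 0.93 in LS3 and 10.78 ± 0.33 in CT (SD, n = 5 each), a difference of −1.40 ± 0.41 (adjusted p = 0.098), and of −1.0 ± 0.23 without that animal (adjusted p = 0.015).

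Without LS3 replicate 2, 9 of the 27 cluster members were called lower, beside 4.18% of all names and 8.62% of rat names, and the list median was −0.73 beside 0.00 and −0.15. These were miR-127, miR-300-3p, miR-329, miR-369-3p, miR-376a, miR-376b-3p, miR-379, miR-411 and miR-434. MiR-379, at the start of the downstream block of the cluster, differed by −1.33 ± 0.35 (adjusted p = 0.066 by limma), and by −1.07 ± 0.22 without that animal (adjusted p = 0.0075). MiR-127, which lies antisense to Rtl1 in the same region, differed by −1.37 ± 0.40 (adjusted p = 0.096), and by −1.02 ± 0.26 (adjusted p = 0.020) without it. MiR-376b-3p was at 4.42 in LS3 replicate 2 and at 6.95 to 7.28 in the other LS3 animals, all below the CT range of 7.81 to 8.20. Over the alternatives, the changes of these 9 members stayed between −1.60 and −0.41, with adjusted p between 3.1e-04 and 0.33.

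In the miR-183 cluster, known from sensory neurons and organs, miR-182 fell. It was at 5.86, 4.61, 6.77, 6.56 and 6.47 in LS3 animals and at 7.55, 7.42, 7.78, 8.06 and 7.52 in CT animals. It fell by 1.61 ± 0.40 (3.06-fold, adjusted p = 0.047 by limma) and by 1.25 ± 0.24 without LS3 replicate 2. MiR-96 and miR-183 differed by −1.01 ± 0.32 and −1.02 ± 0.35 (adjusted p = 0.12 and 0.15). Without that animal the differences were −0.83 ± 0.22 and −0.78 ± 0.25 (adjusted p = 0.025 and 0.065, and between 0.0056 and 0.87 over the alternatives). In all 3 members every LS3 animal lay below every CT animal, beside 6.41% of all names tested and 14.7% of rat names. MiR-34a, a target of p53 that is also expressed in neurons, had levels of 10.07, 8.74, 9.97, 9.87 and 10.60 in LS3 animals and of 11.27, 10.71, 11.00, 11.75 and 11.14 in CT animals. The groups did not overlap, and the difference of −1.32 ± 0.37 was not called (adjusted p = 0.084), but it was without LS3 replicate 2 (−1.05 ± 0.26, adjusted p = 0.018, and between 0.0025 and 0.21 over the alternatives). MiR-34b and miR-34c, cut from a different transcript, differed by −0.22 and 0.10, and by 0.03 and −0.09 without that animal. MiR-335, an imprinted microRNA of the Mest gene, differed by −1.24 ± 0.35 (adjusted p = 0.084) and by −0.95 ± 0.20 without that animal (adjusted p = 0.0076, and between 8.5e-04 and 0.21 over the alternatives). MiR-1224, by a mouse-named probe, was not well above background in any LS3 animal and was detected in 3 CT animals. Its measured values averaged 3.73 in LS3 and 5.39 in CT, and limma on these gave adjusted p = 0.044 (up to 0.92 over the alternatives). The bound was not tested: the level in LS3 was at least 1.02-fold lower than in CT, and no bound was left without LS3 replicate 2. That animal at 4.72 overlapped with CT replicate 5 at 4.60.

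The let-7, miR-30, miR-29 and miR-181 families, which are broadly expressed, had no call against CT with or without LS3 replicate 2. All 9 members of the let-7 list had a negative change (median −0.50 beside −0.45 over rat names), but without LS3 replicate 2 the list median was −0.02, with 4 members positive and 5 negative, and it ranged from −0.33 to 0.05 over the scalings of the arrays. The miR-30, miR-29 and miR-181 lists had medians of −0.71, −0.70 and −0.61, and of −0.30, −0.60 and −0.26 without that animal. MiR-29c differed by −0.70 ± 0.34 (adjusted p = 0.37 by limma), and by −0.63 ± 0.30 without it. Against SH3, with all animals, miR-29c was called lower in LS3 (−1.25, adjusted p = 0.037 by limma), and SH3 lay 0.55 above CT. The sign of the median of the miR-34 list and of the muscle list depended on the scaling.

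Of 8 microRNAs that had also been assayed by PCR, miR-21 and miR-223 were called higher on the arrays against CT and none was called lower. Differences for the other 6 ranged from −0.70 for miR-29c to 0.30 for miR-146a. MiR-145, miR-107, miR-219-5p and miR-468 lay between these at −0.60, −0.49, −0.65 and −0.27. They were at −0.14, −0.15, −0.23 and 0.06 without LS3 replicate 2, so that 1 animal turned the sign of miR-468, and the median of the 8 was −0.04 in place of −0.38. By PCR at the same time after contusion, the paper reported significant rises of miR-21 and miR-223 against controls and shams. It also reported significant falls of miR-29c and miR-107 against controls, and of miR-219-5p against controls and shams. On the arrays none of these falls was called against CT, with or without LS3 replicate 2. Against SH3, miR-29c was called lower (−1.25, adjusted p = 0.037 by limma).

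Scan day bore on the comparison because 2 pairs of arrays shared one. LS3 replicate 3 and CT replicate 3 were scanned on 1 day, and LS3 replicate 5 and CT replicate 5 on another. Within these days, miR-21 differed by 3.11 and 2.97, miR-223 by 2.82 and 2.42, miR-142-3p by 1.82 and 1.80, miR-124 by −1.26 and −0.89, miR-411 by −1.08 and −0.98 and miR-182 by −1.02 and −1.05. All 13 called microRNAs had the direction of their call within both days, beside 363 of all 718 names tested by the same count. However, these 4 arrays are among those that gave the calls. With scan day as a block no name was called (154 at an unadjusted p under 0.05), and adjusted p was 0.080 for miR-21 and 0.11 for miR-223. Only those 4 arrays carry the contrast in that fit. Over 33 alternatives the adjusted p of miR-21 lay between 1.2e-09 and 0.080 and that of miR-223 between 1.1e-07 and 0.11, and those of the other 11, each tested under 28 to 33 of them, between 1.2e-05 and 0.92.

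Laminectomy alone was set against no surgery to locate these differences. No name was called between SH3 and CT (0% of 718, 37 at an unadjusted p under 0.05, by limma). For miR-21 the level was 11.05 ± 0.85 in SH3 and 9.30 ± 0.39 in CT (SD, n = 5 each), a difference of 1.76 ± 0.37 (adjusted p = 0.19). For miR-223 it was 8.78 ± 0.95 in SH3 and 7.74 ± 0.50 in CT, and for miR-142-3p 10.68 ± 1.09 in SH3 and 9.84 ± 0.65 in CT. The changes of the 9 tested members of the miR-17 list had a median of 0.45 in SH3 against CT, and of 0.21 in LS3 against SH3. MiR-221, miR-222, miR-199a-3p, miR-214 and miR-146b differed by 0.61, 0.65, 1.03, 0.39 and 0.78 in SH3 against CT. In LS3 against SH3 they differed by 0.39, 0.21, −0.20, 0.16 and −0.18, none of them called. For miR-124 the level was 14.31 ± 0.39 in SH3 and 14.21 ± 0.29 in CT, and for miR-182 7.83 ± 0.45 in SH3 and 7.67 ± 0.25 in CT. Both comparisons use the same 5 CT animals.

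Between LS3 and SH3, 3 names were higher (0.418%) and 39 lower (5.43%). The higher names were miR-21, by 1.51 (adjusted p = 0.038), miR-223, by 1.63 (adjusted p = 0.048), and miRPlus-A1027, by 1.37 (adjusted p = 0.038). The lower names included 11 of the 27 Dlk1-Dio3 members tested, 6 of the 15 neuronal members and 1 of the 3 members of the miR-183 cluster, beside 25 of the 232 rat names. MiR-124 was lower by 1.72 (adjusted p = 0.037), miR-411 by 1.61 (adjusted p = 0.025), miR-182 by 1.78 (adjusted p = 0.037) and miR-34a by 1.59 (adjusted p = 0.037) in LS3. MiR-142-3p, miR-142-5p, miR-155 and miR-147 differed from SH3 by 0.91, 1.09, 0.59 and 0.66, none of them called. Without LS3 replicate 2 the changes against SH3 were 1.42 for miR-21, 1.84 for miR-223, 1.46 for miRPlus-A1027, −1.40 for miR-124, −1.42 for both miR-411 and miR-182 and −1.31 for miR-34a, all called, and miR-142-5p was then called as well (1.37, adjusted p = 0.028). The 42 calls became 74 without LS3 replicate 2, 24 without LS3 replicate 5 and 27 without SH3 replicate 4, and none was left without LS3 replicate 1, 3 or 4 or SH3 replicate 1, 3 or 5.

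Levels at day 3 were set against those at the other days after contusion. MiR-21 stood at 9.30 in CT, 11.09 in LS1, 12.57 in LS3 and 12.66 in LS7. It was the 1 name higher in LS3 than in LS1 (0.139%), by 1.48 (adjusted p = 0.031 by limma), and it was not called between LS7 and LS3. MiR-21* took another course: it stood at 5.10 in CT, 7.91 in LS1, 5.99 in LS3 and 5.21 in LS7, and was lower in LS3 than in LS1 by 1.92 (adjusted p = 0.023), among 27 names (3.76%). MiRPlus-A1027 was lower in LS3 than in LS1 by 1.97 (adjusted p = 0.0091). MiR-223 stood at 7.74 in CT, 10.14 in LS1, 10.41 in LS3 and 9.17 in LS7. The 6 names lower in LS7 than in LS3 (0.836%) were miR-144 and its opposite arm miR-144*, miR-451, miR-486 under its mouse and its human name, and the human-named miR-1253. MiR-144 stood at 10.89 in CT, 12.18 in LS1, 12.91 in LS3 and 8.60 in LS7, and LS7 minus LS3 was −4.30 (adjusted p = 0.0020), or −4.64 without LS3 replicate 2. MiR-124 stood at 14.21 in CT, 13.63 in LS1, 12.59 in LS3 and 11.87 in LS7. Detected signal on LS7 arrays was 6.57 to 12.9 times the SD of the negative controls, against 8.21 to 18.5 on LS3 arrays, and its part in these differences was not tested. Between LS3 and LS1, single animals moved the 28 calls over a range of 3 (without LS3 replicate 3) to 85 (without LS3 replicate 2). Between LS7 and LS3, 334 names were called without LS3 replicate 2, 64 without LS7 replicate 1, 11 without LS7 replicate 3, and 1 or 2 without any other animal. These comparisons share the LS3 animals with that against CT.

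**Figure D4:**
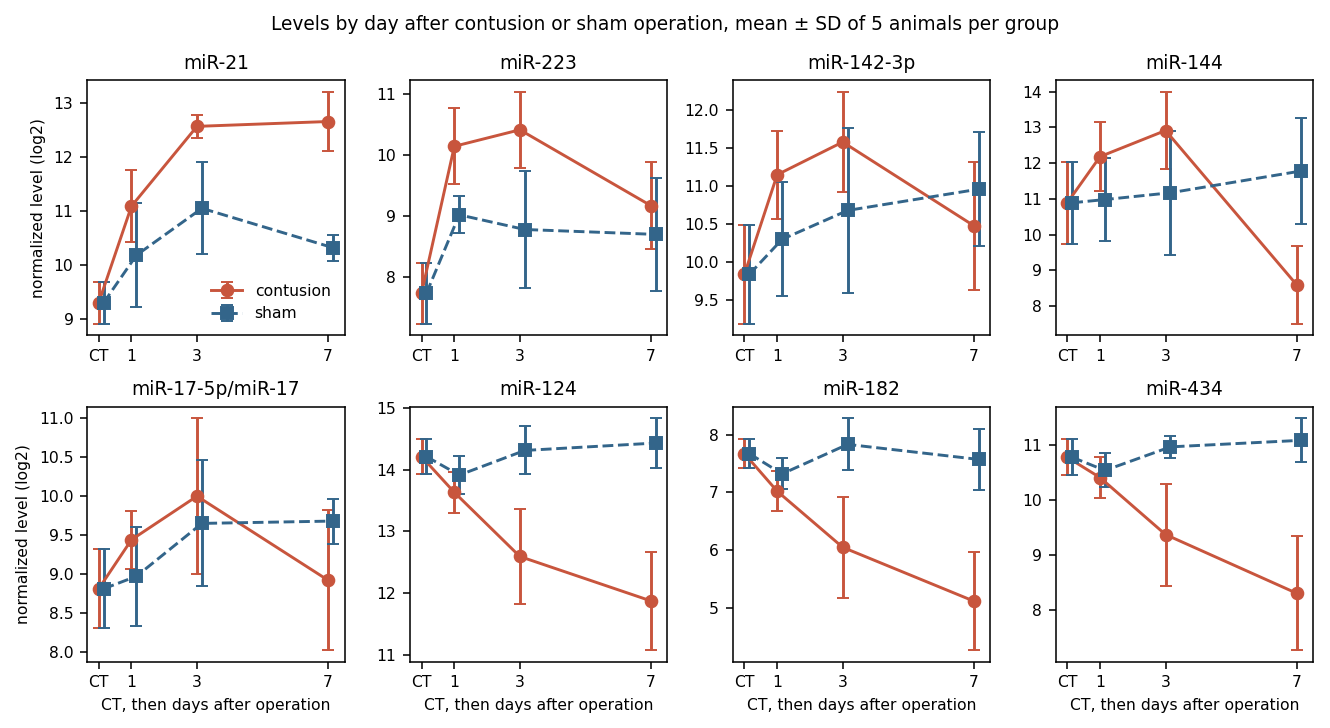
Mean ± SD of normalized log2 levels (5 animals per group) in CT and at 1, 3 and 7 days after contusion (circles) or sham operation (squares) for 8 microRNAs. MiR-21 stands at 12.57 in LS3 and 11.05 in SH3, miR-144 at 8.60 in LS7, and miR-124 at 12.59 in LS3 and 14.31 in SH3.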

How the data were processed

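The study hybridized total RNA of spinal cord fragments from 35 rats, 5 in each of 7 groups, 1 animal per array. The deposited scanner files hold spot intensity values: medians of green (532 nm) foreground and local background, written without normalization per the file headers. One LS1 file gives these medians in another number format, with a decimal comma, as the authors deposited it. The deposited spot flags are a score of the scanner software, where −100 marks a bad spot. The authors also deposited a table normalized by VSN on a log2 scale, which follows the green foreground without background subtraction on all arrays except LS7 replicate 4 and SH7 replicate 1. It was used as an alternative. The red channel was not used.

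Background was subtracted from 7063 microRNA spots, spots marked −100 were left out, and the arrays were normalized together by VSN, written out in Python 3.11.15 and tested on simulated data. Each name, printed in most cases as 4 spots, was given their median. Detection used 28 negative control spots. The LS3 and CT arrays were compared by limma 3.58.1 in R 4.3.3, unpaired, with Benjamini-Hochberg adjustment over 718 names and a threshold of 0.05. The same fit was made for LS3 against SH3, SH3 against CT, LS3 against LS1 and LS7 against LS3. Alternatives were other scalings, filters, blocks, array weights, Rank Product (also written out and tested on simulated data) and leaving out each animal. Array numbers and background signal limit the precision. Groups and comparisons came from the labels, and the microRNA lists and members named were chosen with earlier results of these data known. Named were the microRNAs called, the rat names with the largest changes or smallest p with and without LS3 replicate 2, Rank Product calls and all list members, a few of them in full.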

Additional observations from a re-analysis of the deposited data

Results flagged for a closer look

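In several microRNAs 1 animal lay far from the other 4 of its group by Dixon's test at the 95% level, applied to 54 groups of 5 animals, of which chance marks about 1 in 20. LS3 replicate 2 was the lowest LS3 animal in 9 of them: miR-411 at 5.83, miR-379 at 6.30, miR-335 at 7.77, miR-376a at 7.45, miR-434 at 7.75, miR-376b-3p at 4.42, miR-21* at 4.85, miR-199a-3p at 5.59 and miR-15b at 8.07. All 9 were called in the fit without LS3 replicate 2. Names were chosen in part by that fit, so the rate of 1 in 20 does not hold for these 9. CT replicate 1 was the highest CT animal for miR-411, at 8.35.

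The change also differed between contused and sham-operated animals of day 3 by the limma test of LS3 minus SH3 with Benjamini-Hochberg adjustment. The difference was 1.51 for miR-21, 1.63 for miR-223 and 1.37 for miRPlus-A1027. It was −1.72 for miR-124, −1.68 for miR-383, −1.78 for miR-182, −1.59 for miR-34a and −1.31 for miR-335. The measured values of miR-1224 differed by −1.80, but it was not well above background in any LS3 animal, and its level in LS3 was only bounded, at least 1.12-fold lower than in SH3. In the Dlk1-Dio3 region it was −1.61 for miR-411, −1.63 for miR-434-5p, −1.51 for miR-379, −1.35 for miR-376a and −1.60 for miR-434.

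Between days, LS3 minus LS1 was 1.48 for miR-21, −1.92 for miR-21* and −1.97 for miRPlus-A1027 by the same test.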

How the results depend on the processing

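The comparison of LS3 with CT called 13 microRNAs. The count was 47 in the deposited values, 61 with normexp and quantile normalization, 23 with the 75th percentile of names detected on all arrays, 38 with spike-in scaling, 47 with all 7 groups in 1 fit, 111 with array weights, 20 with rat names only, 21 by Rank Product, and 2 with all spots kept or with no detection filter. Scan day as a block left 0 calls (154 at an unadjusted p under 0.05) and as a random block 166. Leaving out 1 animal gave 2 to 75 calls, the highest without LS3 replicate 2. Without that animal the count was 80 in the deposited values, 84 by VSN without background subtraction, 69 with normexp, 72 with either 75th percentile and 78 with spike-in scaling. No result changed direction under these alternatives where it was called. The replicate numbers were not taken to pair the animals, since 1 of the 5 correlations of deviations was under 0.1 (0.563, 0.134, 0.637, 0.029 and 0.504 for replicates 1 to 5; replicates 3 and 5 share a scan day). Of 10 arrays, 6 correlated best with their own number, a hint from the data and not the design. The replicate block gave 11 calls between LS3 and CT, without miR-142-3p, miR-142-5p and miR-155 (adjusted p = 0.053, 0.066 and 0.058), 114 between LS3 and SH3 in place of 42, 27 between LS3 and LS1, and 10 between LS7 and LS3 in place of 6. The deposited values gave 10 calls between LS3 and LS1 in place of 28. Leaving out 1 animal gave 0 to 74 calls for LS3 against SH3, 0 to 1 for SH3 against CT (1 without SH3 replicate 5), 3 to 85 for LS3 against LS1 and 1 to 334 for LS7 against LS3. The cause of these shifts was not tested. List medians without LS3 replicate 2 and under each scaling were added after seeing the data. Dim microRNAs such as miR-155, miR-147 and miR-1224 are limited by signal over background.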
